A study of Tupaia belangeri chinensis with 36 samples.

Results

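Testis-only piRNAs were the 4025 piRNA entries, of 59590 in the deposited table (6.75%), that had at least 10 counts in each of the 3 testis libraries of the reproductive season (TESTIS-R) and 0 counts in all 11 measured libraries of the epididymis. They were selected on these counts, so the levels in TESTIS-R and the zeros in the epididymis are given as a description, without a test. The samples came from sexually mature male Chinese tree shrews (Tupaia belangeri chinensis), small mammals related to primates, of 1.5 to 2 years of age. The non-reproductive season (NR) was sampled in December 2023 and the reproductive season (R) in April 2024, so season and collection date cannot be told apart, and the labels name no strain, allele or treatment. Small RNA was sequenced from whole testis, caput (head) and cauda (tail) of the epididymis, with 3 libraries labelled for each tissue and season. In the piRNA table TESTIS-NR 3 and CAPUT-NR 3 are averages of columns 1 and 2 of the same group, not measurements, and were left out (n = 2 in both groups).

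piRNAs are small RNAs that are loaded onto PIWI proteins in germ cells, where they guide the silencing of transposons and the cleavage of messenger RNAs. In mammals most of them are made during the pachytene stage of meiosis, from long precursor transcripts of a limited number of genomic clusters. The epididymis receives sperm from the testis, matures them in the caput and stores them in the cauda. An epididymal sample can therefore hold RNA carried by sperm as well as RNA of its own cells. piRNA sequences and genome positions were not analysed here, and the entries are named by their identifiers in the table.

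piRNA totals were 4151639 to 6440714 counts in TESTIS-R, 259893 and 148505 in TESTIS-NR 1 and 2, and 9367 to 195386 in the epididymal libraries. As a check of the tissue labels, miR-34b, miR-34c and miR-449, which are abundant in meiotic and later germ cells, were summed. Of 9 listed miRNAs 6 were in the miRNA table, and mmu-miR-449b had 0 counts in every testis library measured for miRNAs. The sum was 5713 to 7994 counts in 1000000 miRNA counts in TESTIS-R, 324 to 1254 in the epididymis, 341 in TESTIS-NR 1 and 4704 in TESTIS-NR 3. TESTIS-NR 3 thus lay near TESTIS-R, and, if a number marks the same library in both tables as the column names have it, it is the one with no piRNA measurement, so the season values below rest on TESTIS-NR 1 and 2. The sum checks the tissue label of neither, as TESTIS-NR 1 lay within the epididymal range and TESTIS-NR 2 had no miRNA measurement.

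The testis-only piRNAs were rare species. Levels are counts per 1000000 piRNA counts of the library (CPM), and the mean over the 3 TESTIS-R libraries ran from 2.06 to 50.8 CPM with a median of 4.82. The middle of the distribution, from the lower to the upper quartile, lay between 3.61 and 6.84 CPM. In single libraries the median count of a testis-only piRNA was 20 in TESTIS-R 1, 30 in TESTIS-R 2 and 19 in TESTIS-R 3. Of the 4025, 3666 (91.1%) had a mean of at most 10 CPM. The 19812 piRNAs that had at least 10 counts in each TESTIS-R library and also a count in the epididymis, called shared below, had a median of 10.8 CPM and reached 21712 CPM.

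Together the testis-only and shared entries are the 23837 testis piRNAs, and 16.9% of these were testis-only. That share was lower at higher levels. It was 45.8% (405 of 884) among testis piRNAs of at most 3 CPM, 35.8% (1729 of 4829) from 3 to 5 CPM and 21.1% (1532 of 7267) from 5 to 10 CPM. It was 6.59% (315 of 4778) from 10 to 20 CPM and 1.27% (43 of 3373) from 20 to 50 CPM. Only 1 of 1276 testis piRNAs from 50 to 100 CPM was testis-only, and 0 of the 1430 above 100 CPM were. The testis-only piRNA with the highest level took rank 2662 among testis piRNAs. Every testis piRNA above its level of 50.8 CPM thus had a count in at least 1 of the 11 epididymal libraries.

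**Figure D1:**
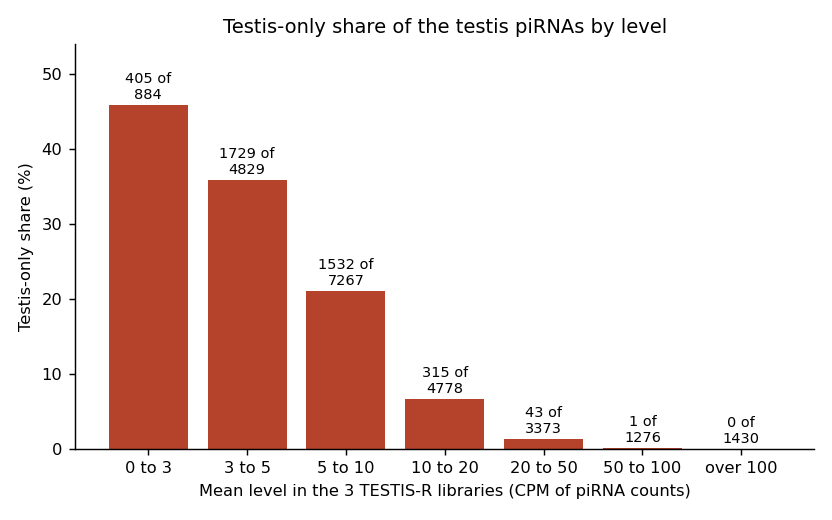
Share of the testis piRNAs (at least 10 counts in each TESTIS-R library) with 0 counts in all 11 epididymal libraries, in %, by mean level in the 3 TESTIS-R libraries in CPM. Bars carry the number of testis-only entries and of all testis piRNAs in the class, and the share goes from 45.8% in the lowest class to 0 of 1430 in the highest.

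The zeros in the epididymis have to be read against depth. The 11 epididymal libraries held 728825 piRNA counts in all, so that 0 counts allow a level of up to 4.12 CPM (3 counts over all 11 libraries, covering counting error only). Of the testis-only piRNAs 2537 (63.0%) had a TESTIS-R level above this limit, and 1488 (37.0%) lay at or under it, where a lower level in the epididymis was not detectable. At its TESTIS-R level a testis-only piRNA would give a median of 3.51 counts over all 11 epididymal libraries, and between 1.50 and 37.0. For 629 the TESTIS-R level was at least 2 times the limit, and for 41 at least 5 times. The limit pools both seasons, and NR libraries add depth but few testis piRNAs (CAUDA-NR 1 had 114337 counts and 150 testis piRNAs). Over the R epididymal libraries alone the limit would be higher, and fewer testis-only piRNAs would lie above it.

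Measured against miRNAs in place of other piRNAs, the contrast was wider, because the epididymis holds few piRNAs among its small RNAs. Over the 10 epididymal libraries with both measurements, 0 counts allow up to 0.0311 per 1000000 miRNA counts. The rule's minimum of 10 counts by itself puts all 4025 testis-only piRNAs above that limit in TESTIS-R. Their levels ran from 3.45 to 75.5 on this scale with a median of 7.89. These levels were at least 111-fold to at least 2423-fold higher than the limit in the epididymis, with a median bound of 253-fold. The bounds come from the counts that selected the set and are a description. On this scale the piRNA totals themselves differed between the tissues. TESTIS-R libraries had 1341676 to 2090743 piRNA counts per 1000000 miRNA counts, and the epididymal libraries 1135 to 17514.

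The epididymal libraries differed widely in how much of the testis set they held. In the reproductive season CAPUT-R 3 had a count for 15446 of the 23837 testis piRNAs, CAUDA-R 1 for 10082, CAUDA-R 3 for 8676, CAPUT-R 1 for 6154, CAUDA-R 2 for 5017 and CAPUT-R 2 for 1958. A library of the same depth with the make-up of TESTIS-R would have a count for 18838, 13805, 11706, 10022, 7055 and 3889 of them. The R epididymal libraries thus held 0.503 to 0.820 times the number that their depth would give. TESTIS-NR 1 and 2, also outside the choice of the testis piRNAs, held 0.838 and 0.763 times theirs, so a shortfall is not particular to the epididymis. In the non-reproductive season CAUDA-NR 1 had 114337 piRNA counts but a count for 150 testis piRNAs, where the make-up of TESTIS-R would give 15704. CAUDA-NR 2 had 1252 against 15176, CAPUT-NR 1 1200 against 5173 and CAPUT-NR 2 295 against 4940. CAUDA-NR 3 stood apart from these with 7544 against 12496. Testis piRNAs held 73.5% to 91.0% of the piRNA counts in the R epididymal libraries, 68.8% in CAUDA-NR 3, and 21.5% and 31.2% in CAUDA-NR 1 and 2, where 10 entries held 69.3% and 67.9%.

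**Figure D2:**
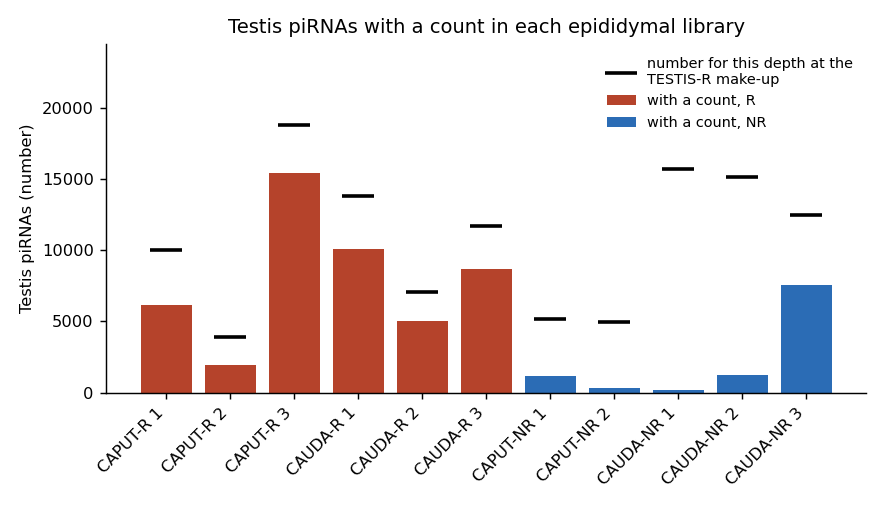
Number of the 23837 testis piRNAs with at least 1 count in each epididymal library (bars, R red, NR blue), with the number that a library of the same depth and the make-up of TESTIS-R would hold (black marks). Bars of the 6 R libraries stand at 0.503 to 0.820 of their marks, and CAUDA-NR 1, CAUDA-NR 2 and CAPUT-NR 2 stand under 0.1 of theirs.

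Most of the exclusions therefore came from the R epididymis and from 1 library in particular. CAPUT-R 3 alone excluded 3394 testis piRNAs that every other epididymal library had at 0, and without it the list would hold 7419 entries. CAUDA-R 1 alone excluded 723, CAUDA-R 3 509, CAUDA-NR 3 443 and CAPUT-R 1 386, and each of the other 6 libraries 5 to 207. With the 6 R libraries as the sole reference the list would hold 4580 entries, and with the 5 NR libraries 15472 (alternatives chosen after the data were seen), so that the NR epididymis contributed little to the rule. The rule also depends on TESTIS-R, since the list would hold 6498 entries without TESTIS-R 1 and 6665 without TESTIS-R 3.

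The rule divides a continuous range of counts. Among the 558 testis-only piRNAs with a lowest TESTIS-R count of 10, pir-tup-29927 had 10, 10 and 10 counts in TESTIS-R 1, 2 and 3, and 0 in TESTIS-NR 1 and 2. pir-tup-974 and pir-tup-52889 each had 10, 11 and 10, and pir-tup-52889 also had 7 counts in TESTIS-NR 1. Just outside were 690 entries with 0 epididymal counts and a lowest TESTIS-R count of 9, such as pir-tup-48728 with 17, 160 and 9 counts, pir-tup-19999 with 9, 95 and 50, and pir-tup-10469 with 9, 139 and 13. Another 2373 testis piRNAs were excluded by 1 epididymal count in all, and 1129 of these counts were in CAPUT-R 3. Among them pir-tup-33352 had 488, 603 and 137 counts in TESTIS-R (80.5 CPM) and 1 count in CAUDA-R 3, more than any testis-only piRNA. pir-tup-52172 (48.8 CPM) and pir-tup-18579 (36.1 CPM) were excluded by 1 count in CAPUT-R 3.

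The 12 testis-only piRNAs with the highest mean in TESTIS-R held 1.74% of the TESTIS-R counts of the set, and the 100 highest 9.12%, so no few entries made up the set. pir-tup-34778 had 262, 478 and 68 counts in TESTIS-R 1, 2 and 3 (63.1, 74.2 and 15.0 CPM), and 1 and 3 in TESTIS-NR 1 and 2 (3.85 and 20.2 CPM). Its mean of 50.8 ± 31.5 CPM (SD, n = 3) would give 37.0 counts over the epididymal libraries and was at least 12.3-fold above their limit. TESTIS-R 1 and 2 were high and TESTIS-R 3 lay below TESTIS-NR 2, so the seasons overlapped.

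pir-tup-33882 had 171, 409 and 65 counts in TESTIS-R (41.2, 63.5 and 14.4 CPM) and 7 and 2 in TESTIS-NR (26.9 and 13.5 CPM), and here too TESTIS-R 3 lay within the NR values. pir-tup-34682 had 153, 293 and 70 counts (36.9, 45.5 and 15.5 CPM) and 1 and 0 in TESTIS-NR. pir-tup-33518 had 155, 241 and 95 counts (37.3, 37.4 and 21.0 CPM) and 0 and 1 in TESTIS-NR. In these last 2 the seasons did not overlap, and the edgeR quasi-likelihood test gave an adjusted p of 0.0619 for each. The log2 changes, R minus NR, were 4.63 (SE 1.18) and 4.54 (SE 1.16). These 2 entries were chosen for high levels in TESTIS-R and had 0 or 1 count in each TESTIS-NR library. Their separation and p are therefore a description, and nothing about season is read from them.

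The other 8 of the 12 had means of 28.1 to 31.4 CPM in TESTIS-R. pir-tup-33311 had 36.9, 46.0 and 11.3 CPM in TESTIS-R and 34.6 and 13.5 in TESTIS-NR, and pir-tup-33635 29.1, 42.5 and 15.9 against 30.8 and 13.5. In the first TESTIS-R 3 lay below both NR values, and in the second between them. pir-tup-34788 had 25.3, 42.2 and 16.8 CPM in TESTIS-R and 7.70 and 6.73 in TESTIS-NR, and its seasons did not overlap. pir-tup-28933 was the 1 of the 12 with a higher mean in NR, at 77.0 and 47.1 CPM in TESTIS-NR 1 and 2 against 28.9, 36.0 and 23.2 in TESTIS-R. Among all 12, TESTIS-R 2 had the highest of the 3 TESTIS-R values in 12 and TESTIS-R 3 the lowest in 11. No entry of the 12 was called between the seasons, with edgeR adjusted p of 0.0619 to 0.909. As all 12 were chosen for their levels in TESTIS-R, nothing about season is read from higher levels or non-overlap among them.

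**Figure D3:**
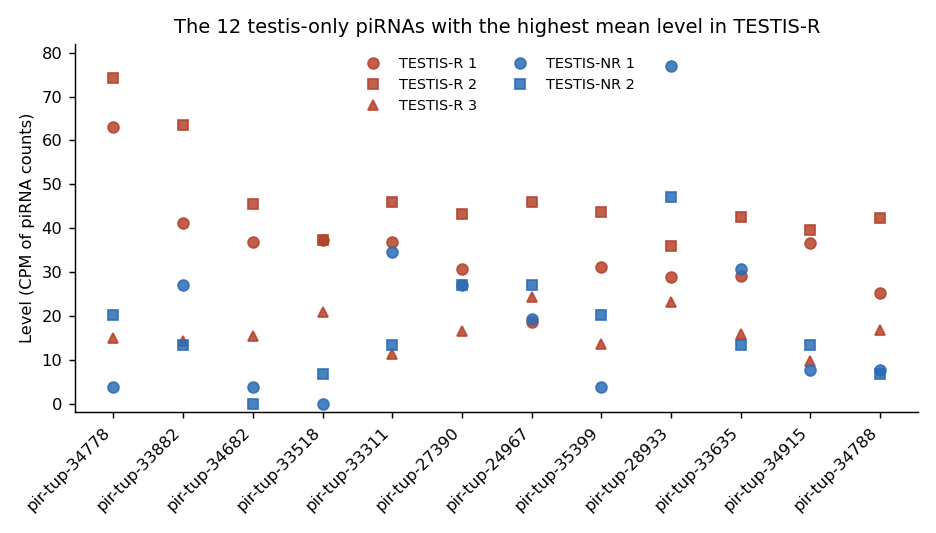
Level in CPM of the 12 testis-only piRNAs with the highest mean in TESTIS-R, with 1 point per library (R red, NR blue; circle, square and triangle for libraries 1, 2 and 3). TESTIS-R 2 (red squares) is the highest R library in all 12 and TESTIS-R 3 (red triangles) the lowest in 11.

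Over the whole set the highest of the 3 TESTIS-R levels was a median of 1.96 times the lowest (quartiles 1.55 and 2.58), and over 5 times in 97 entries. Shared piRNAs of the same level spread alike up to 20 CPM, with medians of 2.16 for testis-only and 2.14 for shared entries from 5 to 10 CPM. From 20 to 50 CPM the medians were 2.48 over the 43 testis-only piRNAs and 1.72 over the 3330 shared ones.

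In raw counts the set as a whole was lower in TESTIS-NR 1 and 2 than in TESTIS-R, as was the total of all piRNAs. It had 100514, 161458 and 96188 counts in TESTIS-R 1, 2 and 3, and 6289 and 3896 in TESTIS-NR 1 and 2. Every R library lay above both NR libraries, with means of 119387 ± 36499 (SD, n = 3) and 5092.5 ± 1692 (SD, n = 2), a ratio of 23.4. The rule sets a minimum count in every TESTIS-R library and no minimum in TESTIS-NR, so this difference is a description. Per 1000000 miRNA counts the set had 36595, 33634 and 44405 counts in TESTIS-R and 1607 in TESTIS-NR 1, the sole NR testis library measured in both tables, a ratio of 23.8, against 24.8 for all piRNAs. The summed germ cell miRNAs moved the same way between these libraries (341 and 5713 to 7994), and their part in the difference was not tested. In whole tissue, fewer cells of a type and less RNA per cell cannot be told apart.

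As a share of all piRNA counts the set overlapped between R and NR. The share was 2.42% in TESTIS-R 1 (95% Wilson interval 2.41 to 2.44), 2.51% in TESTIS-R 2 (2.49 to 2.52) and 2.12% in TESTIS-R 3 (2.11 to 2.14). It was 2.42% in TESTIS-NR 1 (2.36 to 2.48) and 2.62% in TESTIS-NR 2 (2.54 to 2.71). The group means were 2.35 ± 0.201% (SD, n = 3) in R and 2.52 ± 0.144% (SD, n = 2) in NR. The rule selected the set on TESTIS-R counts and not on TESTIS-NR, so these shares are a description and nothing about season is read from them. Shared piRNAs held 87.4% to 90.2% of the counts in TESTIS-R and 84.7% and 81.2% in TESTIS-NR 1 and 2.

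Single testis-only piRNAs were thinly covered in NR. Of the 4025, 909 (22.6%) had a count in both TESTIS-NR libraries, 1700 (42.2%) in 1 and 1416 (35.2%) in neither. Shared piRNAs had a count in both for 50.4% and in neither for 15.8%. Within a class of level the difference was smaller, with a count in at least 1 TESTIS-NR library for 57.4% of testis-only and 62.2% of shared piRNAs from 3 to 5 CPM, and for 84.4% and 92.0% from 10 to 20 CPM. At the TESTIS-R make-up the depth of TESTIS-NR 1 would give a count for 2903 testis-only piRNAs, and it had 2081. TESTIS-NR 2 had 1437 against 2166. These are 0.717 and 0.663 times the number that depth would give, and shared piRNAs also fell short, at 0.859 and 0.777 times. Both sets were selected on TESTIS-R counts.

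Absence from NR could rarely be told from low depth. For 0 counts over both TESTIS-NR libraries (408398 counts) the limit is 7.35 CPM, and 1263 of the 1416 uncounted entries had a TESTIS-R mean at or under it. The other 153 lay above it. The highest was pir-tup-33664 with 176, 162 and 30 counts in TESTIS-R (24.7 ± 17.9 CPM, SD, n = 3). Its mean was at least 3.37-fold above the limit, but rests on TESTIS-R 1 and 2, as TESTIS-R 3 lay under the limit. pir-tup-26704 had 71, 156 and 93 counts (20.6 ± 3.56 CPM), at least 2.81-fold above it. At the other end, 49 testis-only piRNAs reached 10 counts in TESTIS-NR 1, and 25 did in TESTIS-NR 2.

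Of the 3977 testis-only piRNAs that passed the filter on low counts, 0 were called higher and 4 lower in R relative to the other piRNAs (edgeR quasi-likelihood test, TMM scaling, adjusted p under 0.05). Over all 40091 piRNAs tested 0.399% were called higher (160) and 0.519% lower (208). Without adjustment, p of this edgeR test was under 0.05 for 706 testis-only piRNAs with higher and 45 with lower levels in R. Over all 40091 tested the numbers were 5919 and 739, and over the 19778 shared piRNAs tested 4921 and 148. Of the 1260 testis-only piRNAs to which DESeq2 gave an adjusted p, 1 was called higher and 24 lower, against 1.53% and 2.47% of all 16781 with such a p. The 1 was pir-tup-26704, which had 0 counts in NR (log2 change 4.99, SE 1.59, DESeq2 adjusted p 0.0447) and was not called by edgeR (adjusted p 0.0540). Shared piRNAs of the same range of level had 47 calls higher and 37 lower of 17117, and those above it 112 and 2 of 2661. Since the rule asks for counts in TESTIS-R, nothing about season is read from the count of higher calls.

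The calls also depend on scale. The median log2 change of all tested piRNAs was 0.92 with TMM, 0.51 with DESeq2 size factors and 0.06 with library totals. That of the tested testis-only piRNAs was 1.42, 1.02 and 0.56, and that of the shared ones 1.16, 0.75 and 0.30. Both sets were selected for counts in TESTIS-R, so nothing about season is read from their higher medians. With library totals 0 testis-only piRNAs were called higher and 17 lower, against 0.112% and 0.798% of all tested. The fitted changes of entries with 0 counts in NR depend on the prior count. At miRNA totals the NR arm was TESTIS-NR 1 alone, which is assumed to vary like the R libraries, and 3569 of the 3977 were called higher and 0 lower, against 71.0% and 0.0748% of all piRNAs tested. The same 4 libraries with TMM gave 0 higher and 4 lower of 4025 testis-only piRNAs, as more entries passed the filter.

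The 4 called lower in R had more CPM in both TESTIS-NR libraries than in any TESTIS-R library. pir-tup-19970 had 80 and 15 counts in TESTIS-NR 1 and 2 (308 and 101 CPM) and 52, 74 and 41 in TESTIS-R 1, 2 and 3 (12.5, 11.5 and 9.05 CPM). Its mean was 204 ± 146 CPM (SD, n = 2) in NR against 11.02 ± 1.78 (SD, n = 3) in R, a log2 change of -3.37 with SE 0.61 and an edgeR adjusted p of 0.00362. It was the testis-only piRNA with the highest level in NR, and its absence from CAPUT-NR and CAUDA-NR was a choice of the rule.

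pir-tup-20312 had 11 and 23 counts in TESTIS-NR (42.3 and 155 CPM) and 14, 33 and 38 in TESTIS-R (3.37, 5.12 and 8.39 CPM), a log2 change of -3.10 (SE 0.70, edgeR adjusted p 0.0291). pir-tup-47342 had 28 and 13 counts in TESTIS-NR (108 and 87.5 CPM) and 20, 75 and 15 in TESTIS-R (4.82, 11.6 and 3.31 CPM), a change of -2.95 (SE 0.69, edgeR adjusted p 0.0370). pir-tup-46036 had 192 CPM in TESTIS-NR 1 (50 counts) but 20.2 CPM in TESTIS-NR 2 (3 counts), and 34, 43 and 38 in TESTIS-R (8.19, 6.68 and 8.39 CPM). Its change was -3.003 (SE 0.72, edgeR adjusted p 0.0456), and it rests on TESTIS-NR 1.

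All 4 calls were lost without TESTIS-R 1 and without TESTIS-R 3, with log2 changes of -3.86 to -3.01. The adjusted p without TESTIS-R 1 was 0.0617 for pir-tup-19970, 0.252 for pir-tup-20312, 0.289 for pir-tup-47342 and 0.332 for pir-tup-46036. In the same order it was 0.117, 0.123, 0.210 and 0.318 without TESTIS-R 3. Without TESTIS-NR 1 it was 0.103, 0.00512, 0.0895 and 0.787, and without TESTIS-NR 2 0.000507, 0.398, 0.0683 and 0.00177. With all measured libraries in 1 fit no call of the 4 held (adjusted p 0.0744, 0.131, 0.149 and 0.128), and with no filter only that of pir-tup-19970 did (0.0218, 0.0880, 0.0868 and 0.159). At miRNA totals, which also leave out TESTIS-NR 2, the log2 changes were -0.20, 1.78, 0.49 and 0.011, against -4.07, -2.17, -3.30 and -3.90 for the same 4 libraries with TMM.

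The other 2 of the 4 highest levels in NR were pir-tup-9194 and pir-tup-38989. pir-tup-9194 had 38 and 16 counts in TESTIS-NR (146 and 108 CPM) and 18.3, 12.6 and 4.20 CPM in TESTIS-R (edgeR adjusted p 0.0690). pir-tup-38989 had 38 and 12 counts (146 and 80.8 CPM) and 11.3, 19.6 and 4.20 CPM in TESTIS-R (edgeR adjusted p 0.104). Neither passed this test. Every NR value lay above every R value, but both were chosen for high levels in NR, so nothing about season is read from that separation. DESeq2 called both lower in R (adjusted p 0.00265 and 0.0136), and so did edgeR with library totals (0.00555 and 0.0126).

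**Figure D4:**
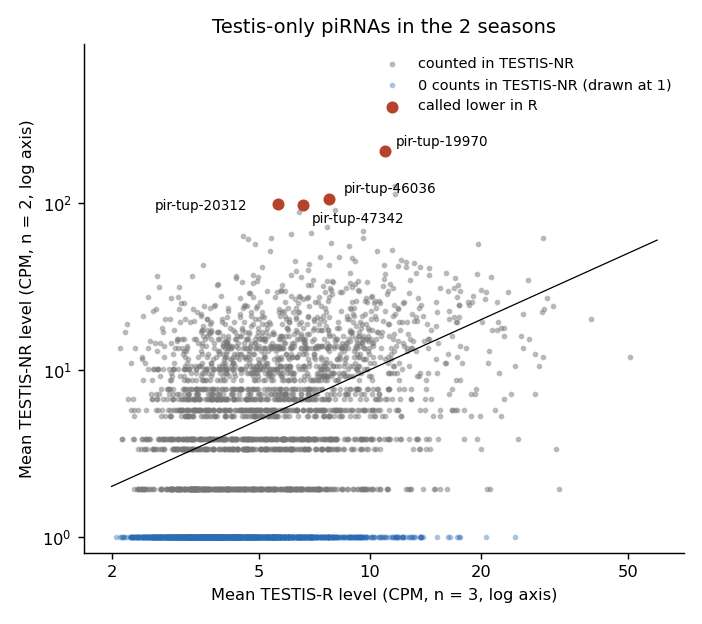
Mean level of each of the 4025 testis-only piRNAs in TESTIS-R (CPM, n = 3, horizontal log axis) and TESTIS-NR (CPM, n = 2, vertical log axis), with the 1416 entries at 0 counts in TESTIS-NR drawn at 1 and the line of equal levels. The 4 entries called lower in R (red) lie above the cloud, at means of 97.6 to 204 CPM in NR.

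Testis-only piRNAs were not spread evenly over the identifiers of the table, which run from 1 to 59590. What the order of the numbers stands for is not given in the sources used here, and the ranges below were set after the values had been seen. Among numbers 1 to 11000, 26.3% of the testis piRNAs (849 of 3232) were testis-only, against 14.6% (1394 of 9568) from 11001 to 33000 and 15.1% (1535 of 10163) from 35501 on. Between these, from 33001 to 35500, the share was 28.3% (247 of 874). In windows of 500 numbers it ran from 24.2% to 33.5% in the 5 windows of this range, from 7.36% to 21.4% in the 44 windows from 11001 to 33000, from 2.50% to 25.4% in those from 35501 on and from 18.8% to 36.7% in those from 1 to 11000. The windows of the range thus overlapped those of the first and last ranges.

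The range from 33001 to 35500 held many of the higher levels. Of the 12 testis-only piRNAs with the highest mean, 9 had a number in this range, and so had 16 of the 40 highest, against 247 of all 4025. The testis-only share was also higher within classes of level, at 42.5% from 5 to 10 CPM and 6.58% (16 of 243) above 20 CPM. From 11001 to 33000 these shares were 18.4% and 0.500%, and from 1 to 11000 30.1% and 1.31%. In the classes from 3 to 5 and from 10 to 20 CPM the range had 51.7% and 15.3%. There it lay nearer to numbers 1 to 11000 (45.7% and 12.4%) than to 11001 to 33000 (32.5% and 4.81%).

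In this range the TESTIS-R libraries differed. The testis-only piRNAs with numbers from 33001 to 35500 held 0.228% and 0.258% of the piRNA counts in TESTIS-R 1 and 2, 0.114% in TESTIS-R 3, and 0.132% and 0.109% in TESTIS-NR 1 and 2. TESTIS-R 3 thus lay with the NR libraries, and below TESTIS-R 1 and 2. The same held for all testis piRNAs of the range, shared ones included, with 3.67% and 3.80% in TESTIS-R 1 and 2, 1.75% in TESTIS-R 3, and 1.96% and 1.63% in TESTIS-NR. In the 6 R epididymal libraries they held 0.801% to 1.99% of the piRNA counts.

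Entry by entry, the level in TESTIS-R 3 was a median of 0.529 times the mean of TESTIS-R 1 and 2 over the testis-only piRNAs of the range, and 0.502 times over the shared ones. TESTIS-R 3 was the lowest of the 3 libraries in 185 of the 247 (74.9%). From 11001 to 33000 the median was 0.926 over testis-only piRNAs and TESTIS-R 3 was lowest in 34.7%, and from 35501 on the values were 0.922 and 35.9%. From 1 to 11000 they were 0.813 and 44.1%. By windows of 500 the median over all testis piRNAs was 0.467 to 0.560 in the 5 windows of the range and at least 0.767 in all others. As 9 of the 12 highest testis-only piRNAs lie in this range, their low values in TESTIS-R 3 and those of the range are the same measurements.

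**Figure D5:**
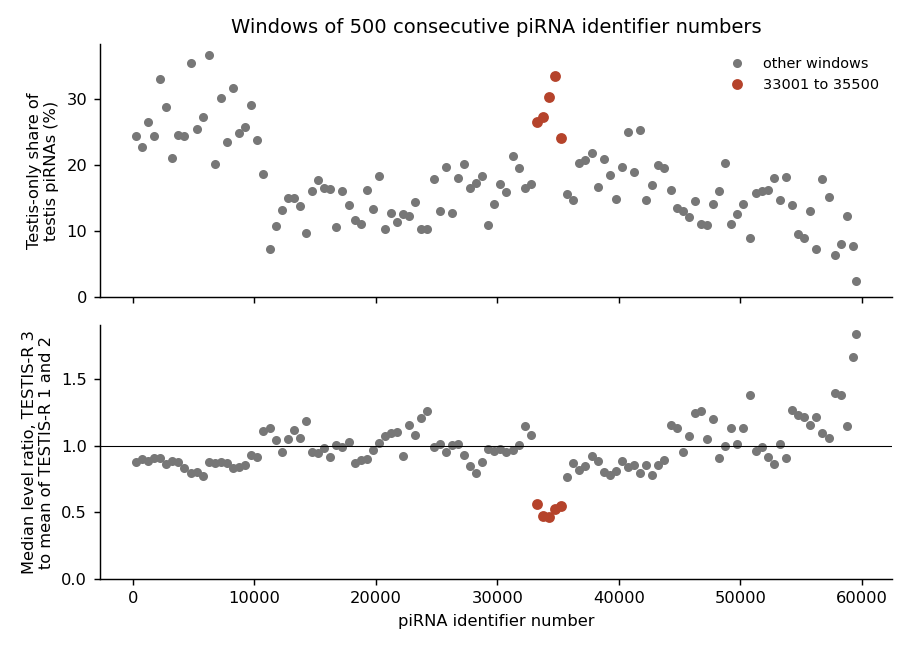
Top, share of testis piRNAs that were testis-only (%) in windows of 500 consecutive identifier numbers, and bottom, median ratio of the level in TESTIS-R 3 to the mean of TESTIS-R 1 and 2 over the testis piRNAs of each window. The 5 windows from 33001 to 35500 (red) have testis-only shares of 24.2% to 33.5% and ratios of 0.467 to 0.560, and these ratios lie below those of all other windows.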

How the data were processed

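Small RNA of 6 groups of tissue and season was sequenced, with single reads of 50 nt and RNA integrity numbers of at least 7.0 per the labels. The authors deposited raw counts per piRNA and per miRNA, with 1 column per library and no normalization. The submitters' processing notes list featureCounts and bedtools; their versions and roles, the aligner and the build used are not stated in the material at hand. The gene and piRNA cluster tables were not used, since they give no names or no link to single piRNAs. TESTIS-NR 3 and CAPUT-NR 3 for piRNAs, and TESTIS-NR 2 and CAPUT-NR 2 for miRNAs, matched the rounded-up mean of the rest of their group at 100% of entries and were left out. In other piRNA columns this share reached at most 98.0%, in the CAPUT-NR columns, where most counts are 0.

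CPM are relative to the piRNA total of a library. Seasons were compared on the whole testis table as R minus NR by the quasi-likelihood test of edgeR 4.0.16 (R 4.3.3), after TMM and the default filter on low counts, with Benjamini-Hochberg adjustment. SE are the log2 change divided by the square root of F. The number of entries that a depth would give sums the chance of at least 1 count at the mean TESTIS-R share. The fit was tested on simulated data. Alternatives were other scalings, no filter, DESeq2 1.42.0, a replicate block, all measured libraries in 1 fit, averaged columns kept, other count minimums and each library left out. The rule named the 12 highest testis-only piRNAs in TESTIS-R, up to 8 called in each direction without overlap, the 4 highest in TESTIS-NR and those next to the limits of the rule. pir-tup-33664 and pir-tup-26704 were chosen after their values were seen. Members and lists were chosen with earlier results of these data known. The labels call replicates biological and name no animals. No use of molecular identifiers is stated, so intervals and limits cover counting error only.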

Additional observations from a re-analysis of the deposited data

How the results depend on the processing

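The size of the list followed its limits. It was 9964 at a minimum of 5 counts, 1176 at 20, 6398 with 1 epididymal count allowed, 7164 against the caput alone, 8729 against the cauda alone and 15472 against the NR epididymis alone (an alternative chosen after seeing the data). Leaving out 1 library gave 4030 to 7419 (CAPUT-R 3 7419, TESTIS-R 1 6498, TESTIS-R 3 6665). The set's share of piRNA counts was 3.86%, 1.10% and 4.02% in TESTIS-R and 4.28%, 1.13% and 4.29% in TESTIS-NR at a minimum of 5, at 20 and with 1 epididymal count allowed, and 2.27% to 2.46% and 2.42% to 2.62% with 1 library left out.

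Season calls over all 40091 piRNAs tested in the testis (160 higher, 208 lower) became 45 and 320 with library totals, 70 higher with DESeq2 size factors, 28468 and 30 at miRNA totals, 46 higher with no filter, 257 and 415 with DESeq2, 32 higher with all measured libraries in 1 fit, and 716 and 487 with averaged columns kept. Leaving out 1 library gave 13 to 706 higher (TESTIS-NR 1 706, TESTIS-NR 2 45, TESTIS-R 1 18, TESTIS-R 2 71, TESTIS-R 3 13) and 85 to 262 lower (TESTIS-NR 2 86, TESTIS-R 1 115, TESTIS-R 3 85). Testis-only calls (0 higher, 4 lower) became 17 lower with library totals, 9 lower with DESeq2 size factors, 3569 higher and 0 lower at miRNA totals, 1 lower with no filter, 1 higher and 24 lower with DESeq2, 0 lower with all measured libraries in 1 fit, and 20 higher and 37 lower with averaged columns kept. Leaving out 1 library gave 0 higher in each case and 0 to 11 lower (0 without TESTIS-R 1 or 3, 11 without TESTIS-R 2). The numbers tested differed between settings. Over all piRNAs they were 59488 with no filter, 16781 with DESeq2, 23944 with averaged columns kept and 22620 to 24078 without a TESTIS-R library. Without a TESTIS-NR library they were 54669 or 55105. Over testis-only piRNAs they were 4025 with no filter, 1260 with DESeq2, 2298 with averaged columns kept and 2156 to 2343 without a TESTIS-R library. Without a TESTIS-NR library they were 4025. The causes of the changes in calls were not tested.

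The replicate block gave 111 lower over all 40091 piRNAs tested and 0 testis-only calls. The numbers are shared by 2 libraries per season, whose deviations correlated at 0.03 and -0.01, so they were not taken as pairs. Of the 18 named entries, log2 changes turned sign at miRNA totals (TESTIS-NR 1 alone against the 3 TESTIS-R libraries) for pir-tup-28933 (3.19), pir-tup-20312 (1.78), pir-tup-46036 (0.011), pir-tup-47342 (0.49), pir-tup-9194 (0.87) and pir-tup-38989 (0.85). pir-tup-28933 also did with the replicate block (0.024), and ran from -0.85 to 0.34 with 1 library left out (0.34 without TESTIS-NR 1). Of the other log2 changes under alternatives 179 kept direction and side of the threshold, 22 passed it newly and 25 no longer did.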
